A study of Mus musculus with 6 samples.

Results

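A set of 45 genes of the secretory pathway was followed in bone marrow cells of mice that lack 2 related nuclear receptors, Nr4a1 and Nr4a3. The set holds the sensors of the unfolded protein response, regulators and surface markers of antibody-secreting cells, chaperones and disulfide isomerases of the endoplasmic reticulum (ER), the ER-associated degradation machinery, and the translocon with signal peptidase. Its members were chosen by function, from a list drawn up with the differences between these same arrays already known, so the values below that compare the genotypes describe the list and are no independent support for it. No signal threshold decided membership. All 45 members had at least 1 probe set (a group of short probes read as 1 value) annotated to their symbol alone, 3 of them under a newer symbol (Ero1l as Ero1a, Ero1lb as Ero1b and Selk as Selenok). Of these, 44 were bright enough to be tested, among 11529 genes tested in all. Derl3 was the dim member.

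Double knockout (DKO) mice carried null alleles of both Nr4a1 and Nr4a3, on a hybrid background of C57BL/6 and 129SvJ. They were compared with wild type (WT) mice, whose strain the labels do not state separately. Both genotypes were 2 to 3 weeks old. Each genotype was measured on 3 arrays, each with RNA pooled from 10 to 20 mice, so an array shows a pool and not an animal. The cells were lineage-negative, Sca1-positive (Lin-Sca1+) bone marrow cells isolated by fluorescence-activated sorting, a gate that holds stem cells together with other progenitors. Such arrays read bulk RNA, and more cells of a type cannot be told apart from more RNA per cell.

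Proteins bound for the cell surface, for secretion or for the membranes of the secretory pathway enter the ER through a channel, the translocon, and are folded there by chaperones and by enzymes that form disulfide bonds. Chains that fail to fold are returned to the cytosol and degraded. When unfolded chains build up, the sensors Ern1 (IRE1α), Eif2ak3 (PERK) and Atf6 start the unfolded protein response: IRE1α splices the mRNA of the transcription factor Xbp1, PERK slows translation and favours Atf4, and ATF6 is cleaved to a transcription factor. Xbp1 is also needed for the expanded ER of plasma cells, which secrete antibody. Splicing of Xbp1 and cleavage of ATF6 are not read by the signals used here.

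Many genes of this family carry an ER stress response element (ERSE) before their start, which is CCAAT, then 9 bases, then CCACG, and is bound by NF-Y together with ATF6 or XBP1. The windows below are shown because they hold that element in members whose signals are described afterwards. Promoter sequence was taken from RefSeq on GRCm38.p6 and could be matched for 36 of the 45 members. The 250 bases before the start were searched on both strands, and 10 of the 36 matched members held the element (27.8%), against 35 of 27025 genes with a promoter (0.13%). These 10 were Calr, Canx, Creld2, Derl3, Dnajc3, Ero1lb, Hsp90b1, Hspa5, Pdia6 and Syvn1. The element was defined in promoters of this family, so this share describes the set and is no new evidence about it. Each line gives 50 bases, read 5′ to 3′ along the gene's own strand, with the outer blocks of the match in capitals. Where the element lies on the opposite strand, the capitals read CGTGG and ATTGG. Hsp90b1 held a further match, not shown. The Herpud1 window holds the related element ERSE-II (ATTGG, 1 base, CCACG), found in 10 of all 32851 promoters (0.0304%).
Hspa5, chr2:34772010-34772059, plus strand: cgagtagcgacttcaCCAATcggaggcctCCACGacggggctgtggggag
Hsp90b1, chr10:86705517-86705566, minus strand: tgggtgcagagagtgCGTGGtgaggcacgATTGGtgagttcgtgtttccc
Calr, chr8:84847059-84847108, minus strand: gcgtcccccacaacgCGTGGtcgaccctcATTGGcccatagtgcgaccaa
Dnajc3, chr14:118937812-118937861, plus strand: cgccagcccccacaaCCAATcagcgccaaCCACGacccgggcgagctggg
Creld2, chr15:88819505-88819554, plus strand: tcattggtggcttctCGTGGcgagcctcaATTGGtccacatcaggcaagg
Pdia6, chr12:17266476-17266525, plus strand: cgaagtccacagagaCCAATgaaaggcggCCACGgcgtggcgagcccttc
Herpud1, chr8:94386362-94386411, plus strand: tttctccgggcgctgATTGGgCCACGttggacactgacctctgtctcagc

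Signals are the deposited array intensities, scaled by the authors so that the trimmed mean of each array was close to 500. Median signals of the 6 arrays lay between 91.7 and 123. The targeted receptor Nr4a1 read 8, 22.4 and 33.8 in the DKO arrays, against 1110.5, 1269 and 816 in the WT arrays. Nr4a3 was too dim to test in either genotype, at 60.9, 59.4 and 21.2 in the DKO arrays and 63.7, 44.3 and 50.8 in the WT arrays, so its signal does not check the labels. WT replicate 2 stood apart from the other WT arrays, at -75.3 on the second principal component where they lay at 43.8 and 55.0, and it had the highest summed signal of the mature neutrophil, B lineage precursor and erythroid marker lists. The counts of members, the sub-group medians, and the pathway and marker lists are therefore also given without it. Differences below are log2 of DKO over WT, on signals with 16 added, with their standard error (SE) and with p-values adjusted by Benjamini-Hochberg over 27022 probe sets in limma. A gene rose or fell where its adjusted p was under 0.05. The number of arrays limits the precision.

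Of the 44 tested members, 36 were higher and 8 lower in DKO cells, with a median log2 difference of 0.34 (1.27-fold) and a range of -0.74 to 1.76. Over all 11529 tested genes, 49.2% were higher and the median was -0.01. By limma, 3 members rose (Sdf2l1, Manf and Ero1l), where 1.08% of all tested genes rose. None fell, where 0.633% of all tested genes fell, and 1 member (Sdc1) was lower at an unadjusted p under 0.05. At that looser limit 18 members were higher, and over all genes the shares were 7.61% higher and 8.65% lower. In 19 members every DKO array lay above every WT array, and in 2 members (Sdc1 and Selk) every DKO array lay below; over all tested genes these shares were 10.7% and 11.3%. Without WT replicate 2, 37 members were higher, the median was 0.37 and 3 members rose, now Sdf2l1, Ero1l and Edem1. Over all genes in that fit, 47.8% were higher, the median was -0.02 and 193 genes rose, against 124 with all 6 arrays. In that fit the differences were 2.08 for Sdf2l1 (adjusted p = 0.0145 in limma), 1.20 for Ero1l (adjusted p = 0.0333 in limma), 0.85 for Manf (adjusted p = 0.0647 in limma) and 0.90 for Xbp1 (adjusted p = 0.143 in limma). The medians of the sub-groups in that fit were 0.22 for translocon genes, 0.27 for degradation genes and 0.36 for sensors. They were 0.37 for disulfide isomerases and oxidases, 0.49 for plasma cell regulators and 0.58 for chaperones. The calls depended on the processing, since 0 members rose with a pseudocount of 1, with no filter on low values, with no intensity trend or with the replicate number as a block. They also depended on single arrays: without DKO replicate 1, 2 or 3, or without WT replicate 1, 0 members rose, and without WT replicate 3 the 2 that rose were Calr and Hyou1.

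**Figure D1:**
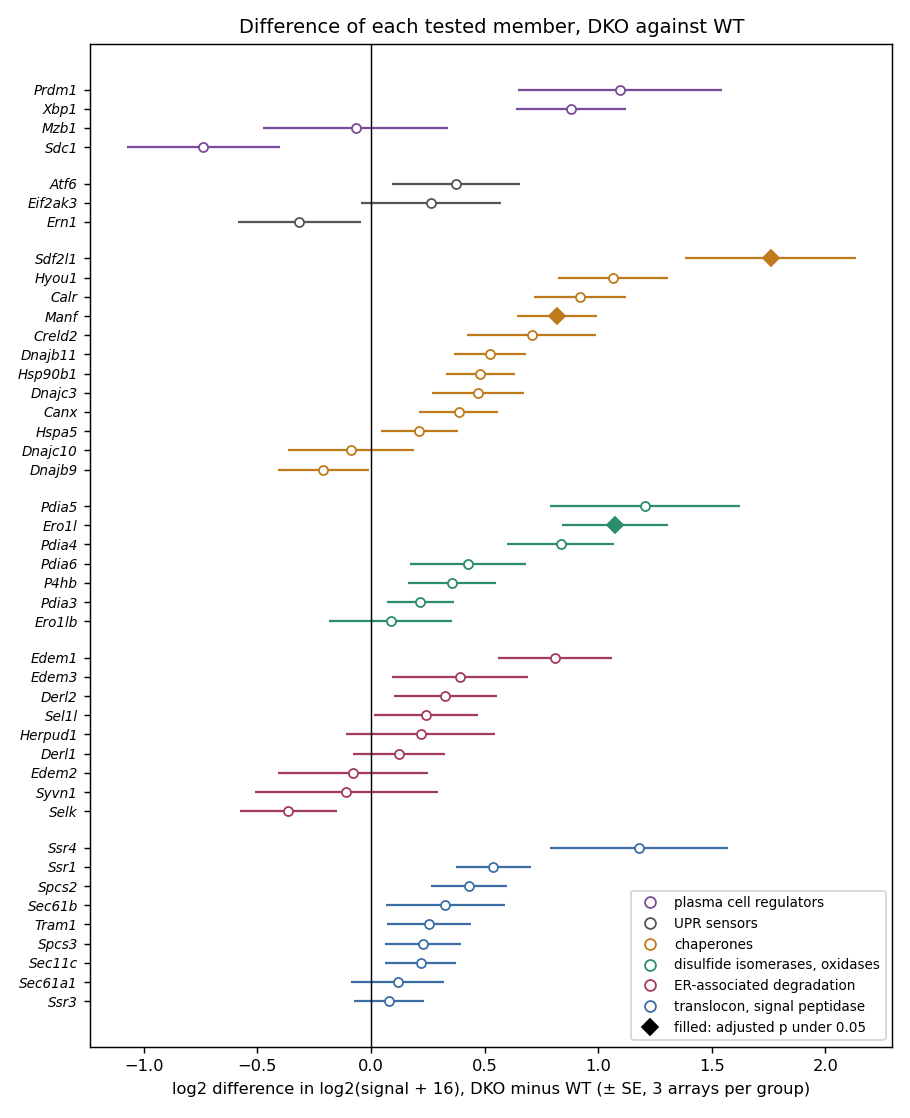
Log2 difference of DKO over WT (x axis, signals with 16 added) for the 44 tested members, ordered within 6 sub-groups, with bars of 1 SE from limma and filled points for genes with an adjusted p under 0.05. The points of chaperones, disulfide isomerases and translocon genes lie mostly right of 0, with Sdf2l1 farthest right at 1.76, while Sdc1 lies farthest left at -0.74.

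None of the 3 sensors passed the test, and their median difference was 0.26. That median ran from 0.12 without DKO replicate 3 to 0.36 without WT replicate 2, and was 0.0043 with a gene's probe sets averaged. Atf6, the sensor that becomes a transcription factor, read 569.6, 595 and 490.3 in DKO cells, against 469, 413 and 383 in WT cells. Its DKO arrays lay above its WT arrays, with a difference of 0.37 ± 0.28 (SE, adjusted p = 0.592 in limma). Ern1, whose product splices Xbp1 mRNA, read 871.5, 783 and 1029.8 in DKO cells, against 1316.5, 784 and 1324 in WT cells. Those groups overlapped, and the difference was -0.32 ± 0.27 (SE, adjusted p = 0.652 in limma), or -0.56 without WT replicate 2 and -0.19 without WT replicate 3. Of the other probe sets of Ern1, 3 were also lower and 1 was higher in DKO cells. Eif2ak3, the kinase that slows translation, differed by 0.26 ± 0.31 (SE, adjusted p = 0.761 in limma), with overlapping groups.

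The plasma cell regulators split into 2 higher and 2 lower genes, with a median of 0.41. That median was -0.07 when the filter removed more dim probe sets, that of Prdm1 among them. Xbp1, the transcription factor of the secretory programme, read 1148, 1769.6 and 1367 in DKO cells, against 753, 774 and 741 in WT cells. The lowest DKO array thus stood well above the closely grouped WT arrays, and the difference was 0.88 ± 0.24 (SE, adjusted p = 0.113 in limma), which missed the threshold. The other Xbp1 probe sets differed by 1.01, 0.80 and 1.23, all higher in DKO cells and none past the threshold. Prdm1 (Blimp-1), which drives plasma cell differentiation, read 164, 168.5 and 209 in DKO cells, against 131, 45.3 and 69.0 in WT cells. These low signals did not overlap, and the difference was 1.10 ± 0.45 (SE, adjusted p = 0.293 in limma).
Sdc1 (CD138), the syndecan used to mark plasma cells, lay on the other side, at 448, 1131.5 and 1014 in DKO cells, against 1181, 1240.6 and 1672 in WT cells. Its difference was -0.74 ± 0.34 (SE, adjusted p = 0.351 in limma), and both other tested probe sets of Sdc1 were lower too, at -0.94 and -0.49. Mzb1, an ER cofactor of antibody assembly, read 145.5, 197 and 264 in DKO cells, against 209, 293 and 143 in WT cells. Its groups overlapped throughout, with a difference of -0.07 ± 0.41 (SE, adjusted p = 0.966 in limma). The 4 plasma cell regulators thus gave values on both sides of 0.

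The chaperones and cochaperones had the highest median difference of the 6 sub-groups, 0.50, with 10 of 12 higher and 2 that rose. In 9 of the 12 every DKO array lay above every WT array. Sdf2l1, an ER protein that works with the chaperone BiP, read 1271, 839 and 948 in DKO cells, against 158, 455 and 319 in WT cells. The lowest DKO array lay above the highest WT array, and the WT arrays were themselves widely spread. Sdf2l1 averaged 1020 ± 225 in DKO cells and 311 ± 149 in WT cells (SD, n = 3 each), a log2 difference of 1.76 ± 0.38 (SE, 3.38-fold, adjusted p = 0.0466 in limma). Manf, a secreted protein released on ER stress, read 4071, 3732 and 3347 in DKO cells, against 1966, 2176 and 2148 in WT cells. Both groups were tight and did not overlap, and Manf differed by 0.82 ± 0.18 (SE, 1.76-fold, adjusted p = 0.0481 in limma). Manf did not pass the test in any of the 6 fits that left out 1 array, where its adjusted p ranged from 0.0647 to 0.192, and Sdf2l1 passed in 1 of those fits, the one without WT replicate 2.

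Calr and Hyou1 came next by p and are named after their values were seen. Calr (calreticulin), the lectin chaperone of the ER lumen, read 6864, 5180.1 and 4986 in DKO cells, against 2463, 2825 and 3729.8 in WT cells. No arrays overlapped, and its difference was 0.92 ± 0.20 (SE, adjusted p = 0.0518 in limma). Of the 58 other tested probe sets of members, 1 passed the threshold, and it belonged to Calr, at 0.97 ± 0.20 (SE, adjusted p = 0.0423 in limma). Over all 27022 tested probe sets, 370 passed. Hyou1 (GRP170), a large relative of the HSP70 chaperones, read 2377, 2259 and 2225 in DKO cells, against 1077, 809 and 1464 in WT cells. The DKO arrays were close together and all above the WT arrays, at 1.06 ± 0.24 (SE, adjusted p = 0.0571 in limma). One of its 2 other probe sets differed by only 0.27.

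Hspa5 (BiP), the master chaperone and the usual readout of ER stress, did not pass the test. It read 8868.5, 9258 and 12109 in DKO cells, against 8540.3, 7435 and 10065 in WT cells. The groups overlapped, at 0.21 ± 0.17 (SE, adjusted p = 0.618 in limma), and its other probe sets differed by 0.32 (adjusted p = 0.368 in limma) and, at far lower signals, by 1.34 (adjusted p = 0.291 in limma). The Hspa5 value was 0.07 without DKO replicate 3, 0.11 without WT replicate 2 and 0.63 with its probe sets averaged, and it passed in none of these fits. Hsp90b1 (GRP94), the ER member of the HSP90 family, read 11399, 9590.3 and 9367 in DKO cells, against 8264, 6816 and 6669 in WT cells. Here the groups were apart, at 0.48 ± 0.15 (SE, adjusted p = 0.164 in limma). The remaining chaperones lay between -0.21 and 0.71. Every DKO array lay above every WT array for Creld2, an ER-resident protein secreted on stress, and for the cochaperones Dnajb11 and Dnajc3. The same held for Canx (calnexin), the membrane-bound relative of calreticulin. The Dnajc3 probe set next in brightness differed by only 0.05, with overlap, and its remaining ones lay between -0.45 and 0.29. The other probe sets of Canx differed by 0.50 and 0.06, with overlap. Dnajb9 and Dnajc10, J-domain cochaperones of BiP, differed by -0.21 and -0.09 with overlapping arrays.

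**Figure D2:**
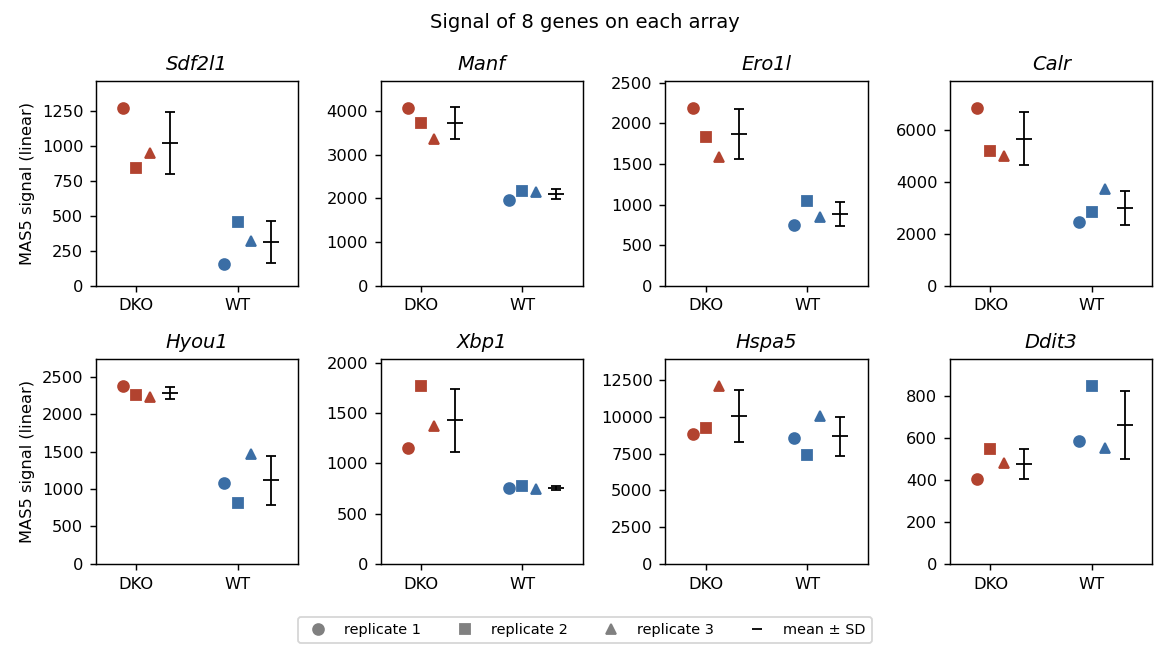
Deposited signal (y axis, linear intensity units, from 0) in each of the 3 DKO arrays (left in each panel, red) and 3 WT arrays (blue) for 7 members and Ddit3, with each group's mean ± SD beside its points. For Sdf2l1, Manf, Ero1l, Calr, Hyou1 and Xbp1 the lowest DKO point lies above the highest WT point, whereas the points of Hspa5 overlap and those of Ddit3 lie lower in DKO cells.

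All 7 disulfide isomerases and oxidases were higher in DKO cells, with a median of 0.43, and 1 rose. Ero1l (Ero1a), the oxidase that returns electrons from protein disulfide isomerase to oxygen, read 2192, 1829.7 and 1584 in DKO cells, against 752, 1044 and 842 in WT cells. Every DKO array lay above every WT array, with means of 1868 ± 306 in DKO cells and 879 ± 149 in WT cells (SD, n = 3 each). The difference was 1.07 ± 0.23 (SE, 2.11-fold, adjusted p = 0.0492 in limma), and the other probe sets gave 1.12 and 1.33. Ero1l passed in 1 of the 6 fits that left out an array, the one without WT replicate 2. Its paralogue Ero1lb differed by 0.09, with overlapping arrays.
Pdia4 (ERp72), a disulfide isomerase of the lumen, read 1970.2, 1380.1 and 1858 in DKO cells, against 853, 1099 and 930.5 in WT cells. The groups were apart at 0.83 ± 0.23 (SE, adjusted p = 0.118 in limma), or 0.28 when averaged with a probe set too dim to test. Pdia5 was dimmer, at 292, 219 and 249 in DKO cells, against 86.0, 70.2 and 162 in WT cells, and was also without overlap at 1.21 ± 0.42 (SE, adjusted p = 0.207 in limma). Pdia6, P4hb and Pdia3 were 0.43, 0.36 and 0.22 higher, each with arrays that overlapped.

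The degradation genes had the lowest median of the 6 sub-groups, 0.22, with 6 higher and 3 lower among 9 tested, and none past the threshold. Edem1, a lectin that hands misfolded glycoproteins to degradation, read 2956, 2413 and 2954 in DKO cells, against 1480.3, 2253 and 1156.5 in WT cells. Its groups did not overlap, although WT replicate 2 came close, and the difference was 0.81 ± 0.25 (SE, adjusted p = 0.157 in limma). Without WT replicate 2 Edem1 passed, at 1.07 with an adjusted p of 0.0380 in limma. Selk, a selenoprotein of the ER membrane, read 1345, 1186 and 1496 in DKO cells, against 1508, 1856 and 1829.7 in WT cells. It lay below WT in every DKO array, at -0.36 ± 0.21 (SE, adjusted p = 0.471 in limma). Syvn1 (HRD1), the ubiquitin ligase of this pathway, differed by -0.11, its partner Sel1l by 0.24 and the scaffold Herpud1, which carries ERSE-II, by 0.22, each with overlapping arrays. The glycoprotein-trimming relatives Edem2 and Edem3 and the derlins Derl1 and Derl2 lay between -0.08 and 0.39. Derl3, a derlin known from secretory tissues, read 50.6, 37.2 and 29.2 in DKO cells, against 14.5, 34.2 and 47.2 in WT cells, and was too dim to test. The median of this sub-group changed sign without WT replicate 1, to -0.11.

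All 9 translocon and signal peptidase genes were higher in DKO cells, with a median of 0.26, and none passed the threshold. Ssr1, a subunit of the translocon-associated protein complex, read 8202, 8261.5 and 6796 in DKO cells, against 6314, 4948 and 4794 in WT cells. The groups did not overlap, at 0.54 ± 0.17 (SE, adjusted p = 0.156 in limma). Its other probe sets pointed the same way, at 0.69, 0.99 and 0.71. Ssr4, another subunit of that complex, read 1092, 1819.5 and 782 in DKO cells, against 389, 364 and 891 in WT cells. The arrays overlapped, and the difference of 1.18 ± 0.39 (SE, adjusted p = 0.186 in limma) was not shared by its other probe sets, at 0.25 and -0.11, and was 0.44 with all averaged. Spcs2, a subunit of the signal peptidase that trims leader sequences, differed by 0.43, without overlap. Sec11c, a catalytic subunit of it, differed by 0.22. Its groups did not overlap, though the closest pair was 8494.3 in a DKO array and 8428.9 in a WT array. The other probe set of Sec11c differed by -0.01. Differences of the channel subunits Sec61a1 and Sec61b, of Tram1, which assists insertion, of Spcs3 and of Ssr3 lay between 0.08 and 0.33, each with overlap.

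For each array, the log2 values of the 44 members were averaged after each gene's mean over the 6 arrays was subtracted. These levels were 0.20, 0.15 and 0.25 in DKO arrays, against -0.34, -0.17 and -0.09 in WT arrays. Every DKO array thus lay above every WT array, and WT replicate 1 was the lowest. Within the WT group, replicate 1 was the highest for 6 of the 44 members (13.6%), against 28.6% of all genes. The chaperones followed this order, at 0.37, 0.23 and 0.28 in DKO arrays, against -0.48, -0.26 and -0.14 in WT arrays. The degradation genes did not: WT replicate 2, at 0.18, was the highest of the 6 arrays. Among 33 members with several probe sets, 44 of the 58 other tested probe sets had the same sign as the brightest one and 14 the opposite sign. None of the 14 passed the threshold, which 370 of all 27022 tested probe sets passed.

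**Figure D3:**
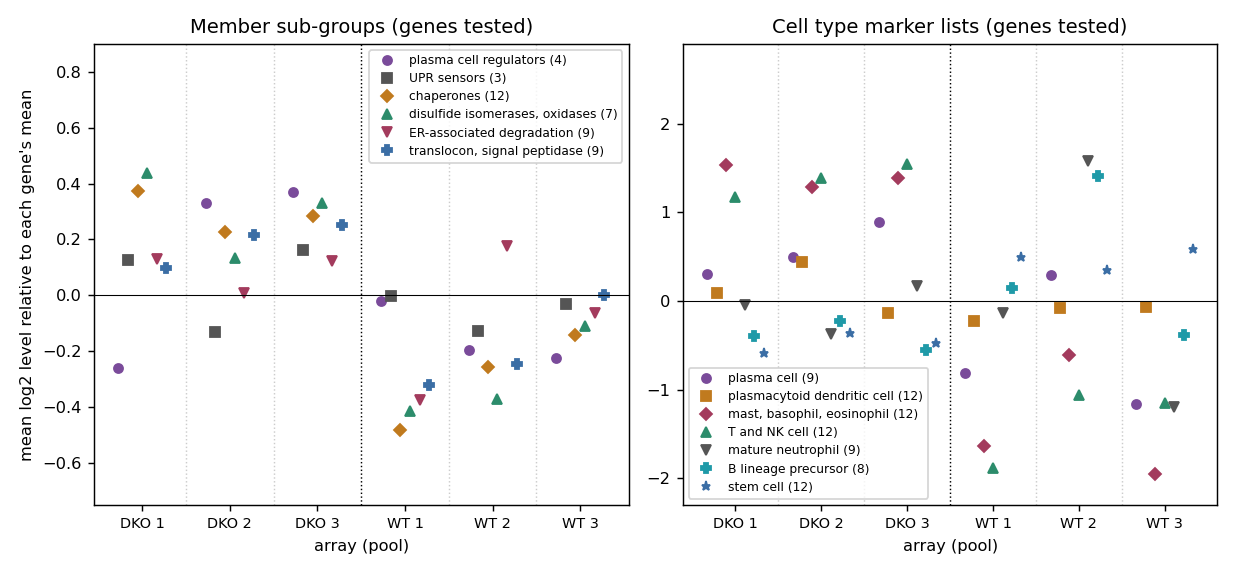
Mean log2 level relative to each gene's mean (y axis) of the 6 member sub-groups (left panel) and of marker lists of cell types (right panel) in each DKO array (left in each panel) and each WT array; a point is 1 list on 1 array. The chaperone points differ by less than 1 log2 unit between any 2 arrays, whereas the mast cell, basophil and eosinophil markers lie between 1.28 and 1.53 in DKO arrays and between -1.96 and -0.61 in WT arrays.

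The 9 tested members with ERSE had a median difference of 0.43, 8 of them higher in DKO cells, and none rose. The 26 tested members whose promoter held no ERSE had a median of 0.34, 20 of them higher, and 2 rose. The promoters of Sdf2l1 and Ero1l, which rose, held no match, and that of Manf was not analysed here. The letters TGACGTGG, a site bound by XBP1 and ATF6, were in 0 of 37 member promoters and in 0.563% of all promoters. The letters AAAGGTCA, to which Nr4a receptors bind as monomers, were in 0 of 37 member promoters and in 1.34% of all promoters. A window without a match says only that these letters are not in it.

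Other genes of the pathway came from lists of known function. Over all tested genes 49.2% were higher, 1.08% rose and 0.633% fell. At those shares, none past the threshold in a list of this size says little about the list. Of 18 matched genes of the PERK and ATF4 arm, 15 were bright enough to be tested. Of these 15, 9 were higher and 6 lower in DKO cells, with a median of 0.16, and 1 rose. At an unadjusted p under 0.05 in limma, 5 were higher and 0 lower, against 7.61% and 8.65% of all tested genes. In 5 every DKO array lay above every WT array and in 2 below, against 10.7% and 11.3% of all tested genes. Without WT replicate 2, 10 of 14 were higher, with a median of 0.34 and 1 that rose. The gene that rose was Psat1, an enzyme of serine synthesis, which read 8929, 8309 and 8740.6 in DKO cells, against 4140.1, 3936 and 5574.5 in WT cells. The groups were far apart, at 0.94 ± 0.17 (SE, adjusted p = 0.0196 in limma), although Psat1 passed in only 2 of the 6 fits that left out an array, with 0.85 and an adjusted p of 0.0432 in limma without WT replicate 2. Ddit3 (CHOP), the factor linked to death under prolonged ER stress, read 403.5, 548 and 478 in DKO cells, against 583, 847 and 549.7 in WT cells. Every DKO array lay below every WT array, though the closest pair was 548 in a DKO array and 549.7 in a WT array. The difference of -0.44 ± 0.29 (SE, adjusted p = 0.540 in limma) did not pass the test, and it was -0.25 without WT replicate 2 and -0.17 with probe sets averaged. Atf4 itself differed by 0.09 (adjusted p = 0.865 in limma). Asns, asparagine synthetase and a target of ATF4, differed by 0.91 (adjusted p = 0.135 in limma).

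Of 25 tested further foldases and degradation genes, 20 were higher and 5 lower, with a median of 0.14, and 1 rose. Vimp (Selenos), a selenoprotein of the retrotranslocation complex, read 3353, 4014 and 4958 in DKO cells, against 1774, 1326 and 2367.5 in WT cells. The lowest DKO array lay above the highest WT array, at 1.19 ± 0.24 (SE, adjusted p = 0.0361 in limma), and Vimp passed in 1 of the 6 fits that left out an array, the one without WT replicate 3 (1.39, adjusted p = 0.0216 in limma). Without WT replicate 2 Vimp differed by 0.98 (adjusted p = 0.0650 in limma), and 0 genes of this list rose. Of its 25 genes 18 were then higher, with a median of 0.17. The 22 further translocon, signal recognition and oligosaccharyltransferase genes held none past the threshold, with 16 higher and a median of 0.18, or 18 higher and 0.21 without WT replicate 2. Stt3a, a catalytic subunit that attaches the glycan, read 6666.5, 7283 and 7795 in DKO cells, against 4438, 4466 and 6015 in WT cells, a difference of 0.55 ± 0.17 (SE, adjusted p = 0.150 in limma) without overlap. Rpn1, of the same complex, read 10243, 12378 and 16421 in DKO cells, against 7053, 8805 and 11326.5 in WT cells. Its groups overlapped, at 0.52 ± 0.21 (SE, adjusted p = 0.270 in limma), or 0.34 without DKO replicate 3.

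Of 32 genes of vesicle transport between ER and Golgi, 20 were higher and 12 lower, with a median of 0.20 and none past the threshold (21 higher, a median of 0.13 and none past it without WT replicate 2). Sec24d, a cargo adaptor of the COPII coat, read 1062, 1518 and 1285 in DKO cells, against 343.5, 419.6 and 1095 in WT cells. WT replicate 3 overlapped the DKO arrays, at 1.21 ± 0.38 (SE, adjusted p = 0.166 in limma), and without that array Sec24d passed at 1.71 (adjusted p = 0.0228 in limma). Copa, of the COPI coat, read 5852, 4992 and 5832 in DKO cells, against 3281, 4438 and 4491 in WT cells, a difference of 0.46 ± 0.18 (SE, adjusted p = 0.260 in limma) without overlap, or 0.21 with its probe sets averaged. Of 11 tested chaperones outside the ER, 6 were higher and 5 lower, with a median of 0.11 and none past the threshold, and without WT replicate 2 the median was 0.08. Hspa1b, an inducible cytosolic HSP70, read 98.6, 171 and 37.6 in DKO cells, against 229, 537 and 353 in WT cells. It was lower in every DKO array, at -1.82 ± 0.51 (SE, adjusted p = 0.120 in limma). Dnajb1, an HSP40 cochaperone, was lower too, at 11563, 11186 and 11190.2 in DKO cells and 15380.4, 13926 and 14175 in WT cells, a difference of -0.36 ± 0.12 (SE, adjusted p = 0.208 in limma).

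Markers of secretory and other cell types were also compared between the genotypes, from lists that likewise were drawn up with earlier results known. The shares over all tested genes were 49.2% higher, 1.08% that rose and 0.633% that fell. Summed signals below cover all matched genes of a list, tested or not. Of 9 tested plasma cell markers, 6 were higher and 2 rose, with a summed signal of 22542 to 52195 in DKO arrays and 5052 to 13301 in WT arrays. Igha, the constant region of IgA, read 14041, 23732 and 32172 in DKO cells, against 542, 1394 and 406 in WT cells, a difference of 4.99 ± 0.40 (SE, adjusted p = 1.16e-04 in limma). Jchain, which joins IgA or IgM chains, read 3619.6, 8134 and 12066 in DKO cells, against 316, 349 and 531 in WT cells, at 4.13 ± 0.38 (SE, adjusted p = 3.28e-04 in limma). Every DKO array lay far above every WT array for these 2 secreted products. Irf4, a transcription factor of plasma cells, differed by 0.05 (adjusted p = 0.980 in limma). The receptor Tnfrsf17 (BCMA) was too dim to test in either genotype, at 55.7, 42.8 and 41.1 in DKO cells and 44.4, 4.8 and 46.2 in WT cells. Ighm, the heavy chain of IgM, differed by -0.05, Tnfrsf13b by -0.10 and Fam46c by -0.56, and Slamf7, Ell2 and Pou2af1 by 0.85, 0.37 and 0.43, none past the threshold. Igha and Jchain made up most of the sum in DKO arrays. The sum without them was 4882, 5007 and 7956 in DKO arrays, against 4194, 11558.5 and 4647 in WT arrays, so that the groups overlapped. With WT replicate 2 left out, 8 of the 9 tested markers were higher and 2 rose, with a median of 0.62.

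Mast cell, basophil and eosinophil markers were higher in DKO cells for 12 of 12 tested, and 8 rose, with a summed signal of 29669 to 36859.5 in DKO arrays and 1792 to 13358 in WT arrays. T and NK cell markers were higher for 12 of 12 as well, and 8 rose, with a summed signal of 11014.5 to 16241 in DKO arrays and 1287 to 2285 in WT arrays. Granule genes of granulocyte-monocyte progenitors were higher for 7 of 8, and 3 rose. Their summed signal was 33372 to 48811 in DKO arrays and 18624 to 41033 in WT arrays. Of 12 tested plasmacytoid dendritic cell markers 7 were higher and 1 rose (Irf8, at 2.07 with an adjusted p of 0.0194 in limma), with a summed signal of 6989 to 9596.5 in DKO arrays and 6643 to 7757 in WT arrays. Of 12 stem cell markers 10 were lower and 6 fell, with a summed signal of 20149.6 to 25230.5 in DKO arrays and 40112 to 49966 in WT arrays. Without WT replicate 2, 10 mast cell, basophil and eosinophil markers, 9 T and NK cell markers and 3 granule genes rose. So did 1 plasmacytoid dendritic cell marker, and 6 stem cell markers fell. Over all genes 193 rose and 74 fell in that fit, against 124 and 73 with all arrays. Kit, which marks stem and progenitor cells, read 1679 to 1968 in DKO arrays and 2419 to 2963 in WT arrays. Ly6a, which encodes Sca1 itself, was not analysed here. Among lineage markers, the T cell receptor subunit Cd3e read 186 to 261 in DKO arrays and 3.3 to 18.7 in WT arrays, after a sort that depletes such cells. Mature neutrophil, B lineage precursor and erythroid markers had medians of -0.15, -0.87 and -0.24 with none past the threshold. Leaving out WT replicate 2 made these medians 0.57, -0.17 and 0.51, again with none past the threshold, so the direction for neutrophil and erythroid markers rested on that array. The part of these cell types in the differences of the 45 genes was not tested.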

How the data were processed

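RNA of 3 DKO and 3 WT pools of sorted cells was hybridised to Affymetrix arrays, 1 per pool. Per the labels, the pools were independent. The deposited values are array intensities on a linear scale, computed with MAS5 per the submitters' processing notes, and the files show that the authors scaled each array to a trimmed mean near 500. No source used here states further steps.

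Of 45101 probe sets, 64 controls were left out, and 34945 had a single gene symbol in the platform annotation. The 40% with the lowest mean of log2(signal + 16) over the 6 arrays were not tested, a cut that corresponds to a signal of 53.2. Values were tested as log2(signal + 16) with limma 3.58.1 in R 4.3.3 (lmFit, eBayes with an intensity trend) between genotypes without a block, with Benjamini-Hochberg adjustment over 27022 probe sets. A gene was its brightest probe set. The script was tested on simulated data. Genes named with every array's value were those past an adjusted p of 0.05, otherwise the 2 with the smallest p in a sub-group or list, plus Hspa5, Xbp1 and Ddit3; further members given per array were added after their values were seen. The members, sub-groups, pathway lists and marker lists were chosen with earlier results of these data known. Alternatives covered the pseudocount, filter, scaling, variance model, probe set summary, a replicate block and each array left out; the pathway and marker lists without WT replicate 2, and plasma cell markers without Igha and Jchain, were added after seeing the data. Plots used matplotlib 3.10.9 (Python 3.11.15).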

Additional observations from a re-analysis of the deposited data

How the results depend on the processing

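The number of members that rose was 3 and depended on the settings. It was 0 with a pseudocount of 1, with no filter on low values, with no intensity trend and with the replicate block. It was 5 with the dimmest 60% left out, with array quality weights and at an adjusted p of 0.10, and 2 to 4 with a pseudocount of 64, quantile normalization, median centring or averaged probe sets per gene. Leaving out each array in turn gave 0 to 3. The number that fell was 0 in all 17 alternatives. The median log2 difference of the members was 0.28 to 0.39 with an array left out and 0.45 with median centring; that scaling moved the median of all genes by 0.11, and the members' median less that of all genes was 0.35 either way. With it the share of higher genes among all called genes was 72.1%, against 62.9% in the values reported, and 119 genes rose and 46 fell, against 124 and 73. The median of the plasma cell regulators was -0.068 with the dimmest 60% left out, and that of the degradation genes ran between -0.11 and 0.27 with an array left out; the cause was not tested. The adjusted p over all alternatives ranged from 0.0145 to 0.192 for Sdf2l1 (past the threshold in 8 of 17), 0.0231 to 0.207 for Manf (5 of 17), 0.0238 to 0.204 for Ero1l (8 of 17), 0.0110 to 0.186 for Psat1 (12 of 17) and 0.0163 to 0.180 for Vimp (9 of 17), and none of these 5 changed sign. Among the 17, the adjusted p threshold of 0.10 reused the p-values of the main fit. Each of these 5 genes therefore passed it by construction. Deviations from group means correlated by 0.14, -0.03 and 0.05 between DKO and WT arrays with the same replicate number. Between DKO and WT arrays with different numbers the correlations ranged from -0.13 to 0.06. With 3 arrays per group these values cannot exclude pairing. The numbers only name pools and were not taken as pairs. Dim members such as Derl3 and Prdm1 are limited by signal over background.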

Other observations

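Outside the 45 genes, 25 genes held ERSE in the 250 bases before their start. Of these, 4 were tested, and none passed the threshold by limma or an unadjusted p under 0.05. Alg12, a mannosyltransferase of the ER, differed by -0.31 (DKO over WT, log2). Pan2 differed by -0.21, Acacb by -0.07 and Adcy3 by 0.32.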
